A study of Mus musculus with 40 samples.

Results

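The 10 genes described here make up the MHC class I antigen presentation pathway: the heavy chains H2-K1 and H2-D1, the light chain B2m, the peptide transporter genes Tap1 and Tap2, the loading factor Tapbp, the immunoproteasome subunits Psmb8, Psmb9 and Psmb10, and the transactivator Nlrc5. They were taken by symbol from a table of read counts of 54087 genes, and all 10 were found and passed a filter on low counts that left 14760 genes. RNA came from CT26 tumors, which grow from a single colon carcinoma line of BALB/c origin, in 40 mice that each gave 1 library. Each mouse received 1000000 CT26 cells under the skin and monoclonal antibodies (mAbs) by intraperitoneal injection on days 6, 9 and 12, and the tumor was collected on day 13. The labels give no age for the mice.

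There were 8 groups of 5 mice. The isotype control group received motavizumab, a mouse IgG2a that serves as the control. A single mAb was given in 4 groups: anti-PD-1 FcS (the RMP1-14 variable regions on an Fc-silent backbone), anti-TGF-β (clone 1D11), anti-GARP:TGF-β1 WT (clone 58A2 as mouse IgG2a, which blocks the release of TGF-β1 from GARP on regulatory T cells), and anti-GARP:TGF-β1 FcD (the same clone with an Fc-dead backbone). The other 3 groups received anti-PD-1 FcS together with anti-GARP:TGF-β1 WT (the WT combination), with anti-GARP:TGF-β1 FcD (the FcD combination), or with anti-TGF-β (the anti-TGF-β combination). All 40 mice carried the same tumor line, and no group was left without an injected antibody. Mice are numbered 1 to 5 within a group only as names. The tumor pieces hold cancer cells and host cells together, so that fewer cells of a type and less RNA per cell cannot be told apart in any value given here.

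Nearly every nucleated cell displays peptides of its own proteins on MHC class I molecules, which CD8+ T cells inspect. The proteasome cuts proteins into peptides, the TAP transporter carries the peptides into the endoplasmic reticulum, tapasin (Tapbp) holds the empty class I molecule at the transporter until a peptide fits, and β2-microglobulin (B2m) completes the molecule that travels to the surface. Interferon-γ raises many of these genes and exchanges the catalytic subunits Psmb5, Psmb6 and Psmb7 of the proteasome for Psmb8, Psmb9 and Psmb10, which gives the immunoproteasome. Nlrc5 is a transactivator that acts with the RFX and CREB or ATF factors at an SXY module in class I promoters. Loss of class I presentation is a known way for tumor cells to escape CD8+ T cells.

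Of the 10 genes, 7 lie in the MHC region of chromosome 17 (H2-K1, Tapbp, Psmb9, Tap1, Psmb8, Tap2 and H2-D1), between the first base of Tapbp at 33915899 and the last of H2-D1 at 35267499 (GRCm38). Psmb10 (chr8:105935735-105938444, minus strand) and Nlrc5 (chr8:94434356-94527272, plus strand) lie on chromosome 8, and B2m (chr2:122147686-122153083, plus strand) on chromosome 2. Tap1 (chr17:34187553-34197225, plus strand) and Psmb9 (chr17:34181987-34187764, minus strand) overlap at their starts on opposite strands. The libraries were stranded, but the strand setting of the counting is not given in the sources used here, so reads in that stretch could have been counted for either gene. BALB/c mice carry the H-2d haplotype and the reference genome H-2b, and class I genes are near copies of each other. The values of H2-K1, H2-D1 and other H2 genes are therefore uncertain as to which copy the reads came from.

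The promoters of 3 members are shown, those of the light chain B2m, of the heavy chain H2-K1 and of Psmb10, on which the widest difference between groups fell. The sequences are those of RefSeq (GRCm38.p6), read on the gene's strand from position -250 before the RefSeq start up to the first base of any annotated transcript, which lies after position -1 for H2-K1, -2 for B2m and -53 for Psmb10. The stretch in which H2-K1 and B2m hold some of their matches is thus not printed for Psmb10. Promoter windows were found for 8 of the 10 members, and Tap2 and Nlrc5 are named only. Capitals mark matches to GGGGATTCC (NF-κB-like) and, on the reverse strand, to GAANNGAAA (like the interferon-stimulated response element, ISRE). They also mark TGACG (X2-like) followed after 20 bases by ATTGG (Y, an inverted CCAAT box). Only these letters were searched. Close variants, such as gaaactgaaa and gggaaagtccc in B2m, stay in lower case, which does not show that an element is absent.
H2-K1, chr17:34000348-34000597, minus strand, 250 bases: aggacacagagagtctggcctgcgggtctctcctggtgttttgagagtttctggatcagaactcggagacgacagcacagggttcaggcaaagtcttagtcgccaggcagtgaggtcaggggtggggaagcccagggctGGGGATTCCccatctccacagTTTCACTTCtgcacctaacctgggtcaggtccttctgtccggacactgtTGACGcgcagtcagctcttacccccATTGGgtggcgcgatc
B2m, chr2:122147437-122147685, plus strand, 249 bases: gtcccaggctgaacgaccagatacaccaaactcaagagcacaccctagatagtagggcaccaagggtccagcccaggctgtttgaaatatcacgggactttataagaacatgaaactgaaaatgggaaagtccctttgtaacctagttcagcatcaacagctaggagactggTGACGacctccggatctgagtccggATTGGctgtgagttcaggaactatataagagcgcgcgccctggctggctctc
Psmb10, chr8:105938445-105938642, minus strand, 198 bases: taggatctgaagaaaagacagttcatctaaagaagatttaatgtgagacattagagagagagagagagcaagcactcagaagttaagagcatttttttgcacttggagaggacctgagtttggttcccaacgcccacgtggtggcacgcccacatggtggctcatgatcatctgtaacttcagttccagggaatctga

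Positions are counted from the RefSeq start. Those of H2-D1 lie within its annotated gene, which begins further upstream. The spaced pair of TGACG and ATTGG occurred in B2m, H2-K1 and H2-D1, and the 30 bases of each are set out here to compare the letters between the motifs, which are in lower case.
B2m, positions -78 to -49 from the start (chr2:122147609-122147638): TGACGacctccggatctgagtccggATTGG
H2-K1, positions -41 to -12 (chr17:34000359-34000388): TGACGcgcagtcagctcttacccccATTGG
H2-D1, positions -101 to -72 (chr17:35262993-35263022): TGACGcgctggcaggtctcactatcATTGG
In 27025 promoter windows of the 250 bases before a start, 25 held this spaced pair on either strand (0.0925%), whereas TGACG alone stood in 17.9% and ATTGG alone in 34.5%. The 20-base spacing was chosen after the members' windows had been seen. H2-K1 and H2-D1 were identical at 23 of these 30 bases, B2m and H2-K1 at 13, and B2m and H2-D1 at 12.

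A second shared stretch, the NF-κB-like letters followed after 12 bases by the ISRE-like letters, occurred in both heavy chain genes.
H2-K1, positions -111 to -82 (chr17:34000429-34000458): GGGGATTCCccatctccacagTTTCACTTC
H2-D1, positions -171 to -142 (chr17:35262923-35262952): GGGGATTCCccatctcctcagTTTCACTTC
These were identical at 29 of 30 bases, and 3 of the 27025 windows (0.0111%) held the pair, the third being that of the class Ib gene H2-Q6. The letters GGGGATTCC and the 12-base spacing are those of both heavy chain windows, so this share is a description and no test. Alone, GGGGATTCC stood in 0.218% of all windows and GAANNGAAA in 6.34%. The GAS motif TTCNNNGAA stood in 7.18% of all windows and in 1 of the 8 members, Psmb8. No match appeared in the 250 bases searched for Psmb10, which says only that these letters are not in those bases.

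Total counts ran from 11931730 to 20680548 per mouse (median 14030511), and counts of single mice were scaled to counts per 1000000 (CPM) with TMM factors. A few tumors stood apart by the markers of other cells: summed CPM of leukocyte markers was 2387 in mouse 5 of the WT combination against 316 to 1123 in the other 39 mice, and epithelial markers summed to 500.1 in mouse 4 of the FcD combination, the highest of all mice. The tumor pieces had little RNA of Epcam, an epithelial gene that the label of a colon carcinoma would lead one to look for. It had a median of 0.546 CPM, with 0 counts in 7 mice, while Krt18, another epithelial marker, had a median of 10.5 CPM. Libraries were numbered 41 to 80 without a break. They were split by number into an earlier part (41 to 60) and a later part (61 to 80), each holding 2 or 3 mice of every group. The labels do not give this split. It was noted in earlier results of these data, so differences between the parts are descriptions. Summed epithelial markers were 5.08 to 18.2 CPM in the earlier and 19.96 to 500.1 CPM in the later part, without overlap, and their part in the results was not tested. Between the parts 1.68% of all genes, but 0 members, differed at an adjusted p under 0.05. At an unadjusted p under 0.05, 1 member (Tap2, 0.20 ± 0.09 on the log2 scale, adjusted p = 0.338, edgeR) was higher in the later part, where 5.47% of all genes were. Throughout, adjusted p-values are Benjamini-Hochberg values over 14760 genes from the quasi-likelihood test of edgeR on all 40 mice, errors of log2 fold changes are standard errors, and the other errors are SDs over mice.

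Per kilobase of transcript, the light chain was the most abundant member, with a mean of 2641 CPM per kb for B2m over the 40 mice. H2-D1 (1494 CPM per kb) and H2-K1 (1232 CPM per kb) followed. The immunoproteasome and loading genes formed a lower band, from 234 CPM per kb for Psmb8, 187 for Tapbp, 186 for Psmb9 and 154 for Psmb10 down to 118 for Tap1 and 74.5 for Tap2. Nlrc5, the transactivator, had the lowest level at 19.5 CPM per kb. Within this band the neighbours Tapbp (79.1 to 308 CPM per kb) and Psmb9 (52.1 to 301) overlapped over nearly their whole ranges, and Psmb8 (90.0 to 372) and Psmb10 (62.6 to 299) overlapped with both, while B2m (1594 to 3567) and Nlrc5 (5.72 to 31.7) lay apart from that band in every mouse.

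The abundant members varied least between tumors. The coefficient of variation over 40 mice was 12.7% for B2m, 13.8% for H2-D1 and 15.4% for H2-K1, and the highest tumor held 2.24, 2.19 and 2.43 times the CPM of the lowest. For the transporter genes and Tapbp it was between 20.4% (Tap1) and 22.7% (Tap2). Psmb8 (22.5%) spread about as much as Tap2. Psmb9 (25%), Psmb10 (29.3%) and Nlrc5 (30.3%) spread more, and the highest tumor had 5.79 times the Psmb9 and 5.54 times the Nlrc5 of the lowest. Group means were highest in the anti-TGF-β combination for 8 of the 10 members, and in the WT combination for B2m and Nlrc5. They were lowest with anti-PD-1 for 5 members and with anti-GARP:TGF-β1 FcD alone for the other 5.

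**Figure D1:**
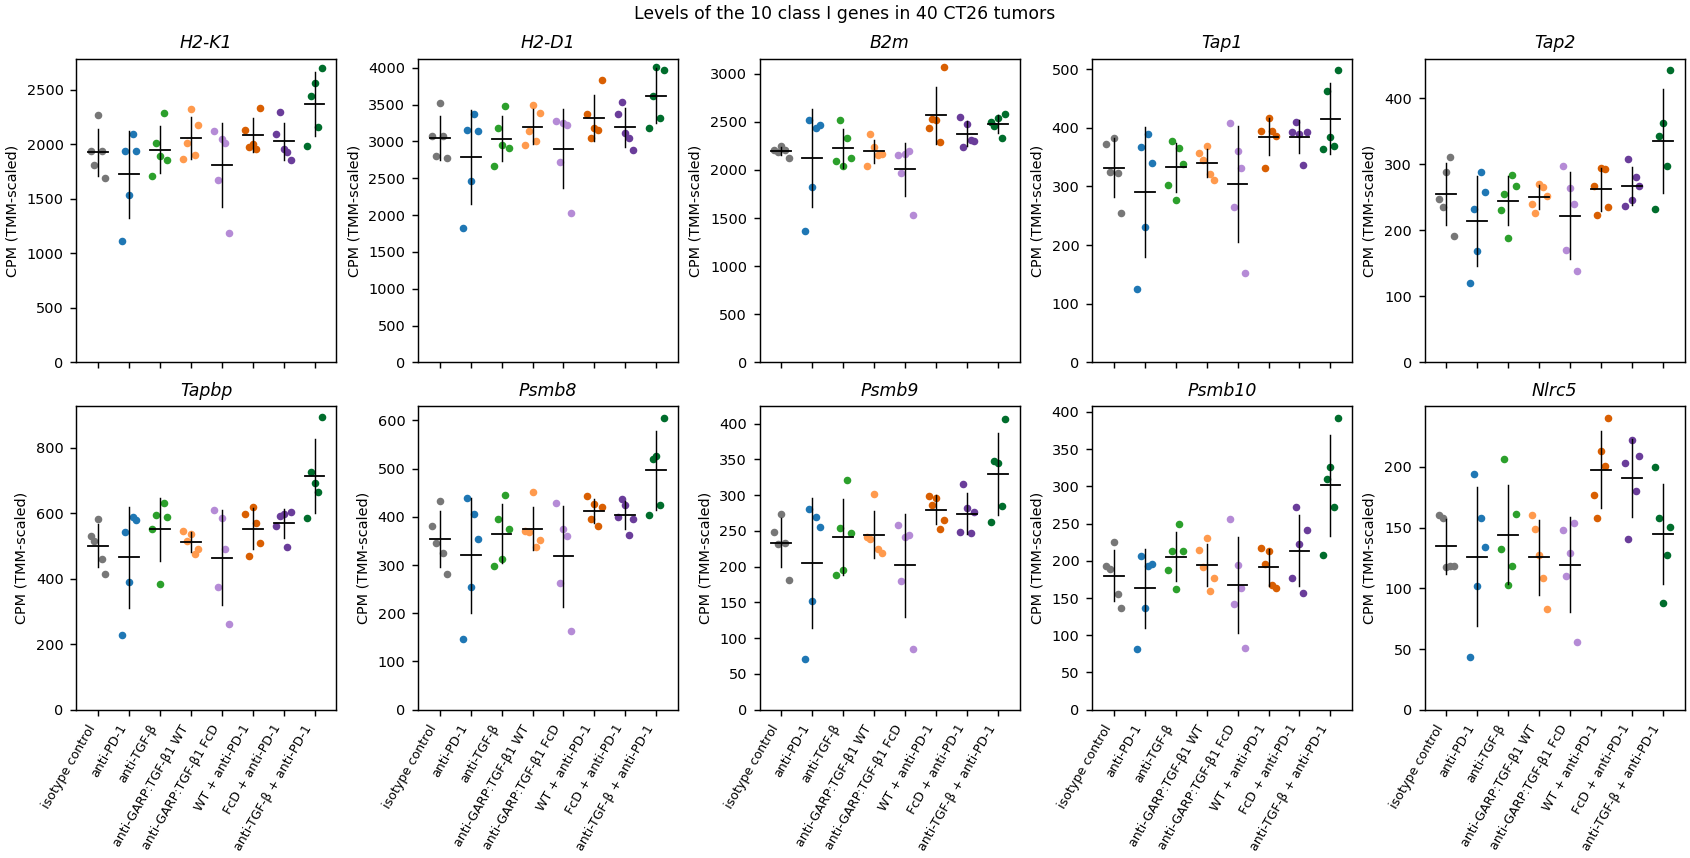
CPM of each of the 10 genes (vertical axes, linear, from 0) by group (horizontal axes), with a point for each of the 5 mice and bars for the mean ± SD. The anti-TGF-β combination has the highest mean for 8 genes, and B2m and Nlrc5 are highest in the WT combination. Mouse 1 is the lowest of the anti-PD-1 group and mouse 5 the lowest of the anti-GARP:TGF-β1 FcD group for all 10 genes, by gaps that differ between genes.

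The low group means rested on few mice. Mouse 1 of the anti-PD-1 group had the lowest level of all 40 mice for each of the 10 genes, with a median difference of -1.11 on the log2 scale from the isotype mean. In this tumor Psmb9 stood at 70.4 CPM, Tap1 at 124 CPM and Nlrc5 at 43.4 CPM, where the other 4 mice of its group had 152 to 280.1, 230.3 to 389 and 102 to 194 CPM. Mouse 5 of the anti-GARP:TGF-β1 FcD group was among the lowest 3 of 40 for all 10 genes (median difference -1.01), and mouse 3 of the anti-PD-1 group for 8 (median difference -0.38). These tumors also had little RNA of T cells and of interferon-γ: Ifng had 2 counts in mouse 1 and 4 counts in mouse 3 of the anti-PD-1 group and 3 counts in mouse 5 of the FcD group. Summed T cell markers were 14.5, 9.77 and 12.6 CPM in these mice, in the same order, against 21.3 to 62.7 in the isotype mice, and leukocyte markers were lowest of all mice in mouse 1 of anti-PD-1 (316 CPM). That tumor also had more RNA of some other host cells than any isotype mouse: fibroblast markers summed to 2511 CPM against 1523 to 1994, adipocyte markers to 110.3 against 0.693 to 24.2, endothelial markers to 134 against 74.2 to 98.0, neutrophil markers to 66.5 against 21.1 to 58.8 and B cell markers to 21.7 against 0.247 to 2.32. Its macrophage markers (1729 against 2053 to 3393 CPM) and dendritic cell markers (20.3 against 20.4 to 27.5 CPM) lay below the isotype range. Endothelial markers were 129 CPM in mouse 5 of the FcD group. The part of these cells in the low levels was not tested.

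At the other end stood mice of the anti-TGF-β combination. Its mouse 5 was highest of all 40 for 7 members and among the highest 3 for 9, with a median difference of 0.70 on the log2 scale from the isotype mean. This tumor also had the highest B cell marker sum of all 40 (57.0 CPM against 0.247 to 2.32 in the isotype mice), whose part was not tested. Mice 2 and 3 of that group were each among the highest 3 for 7 members (median differences 0.47 and 0.45). Mouse 3 combined the second highest Psmb10 of all 40 mice with the fourth lowest Nlrc5, so the members did not all move together in it. Mouse 5 of the WT combination, which stood apart by its leukocyte markers, was the highest of all 40 for B2m (3068 CPM) and Nlrc5 (240.0 CPM), but lay within the range of its own group for Tap1 (386 CPM) and Tap2 (235 CPM).

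**Figure D2:**
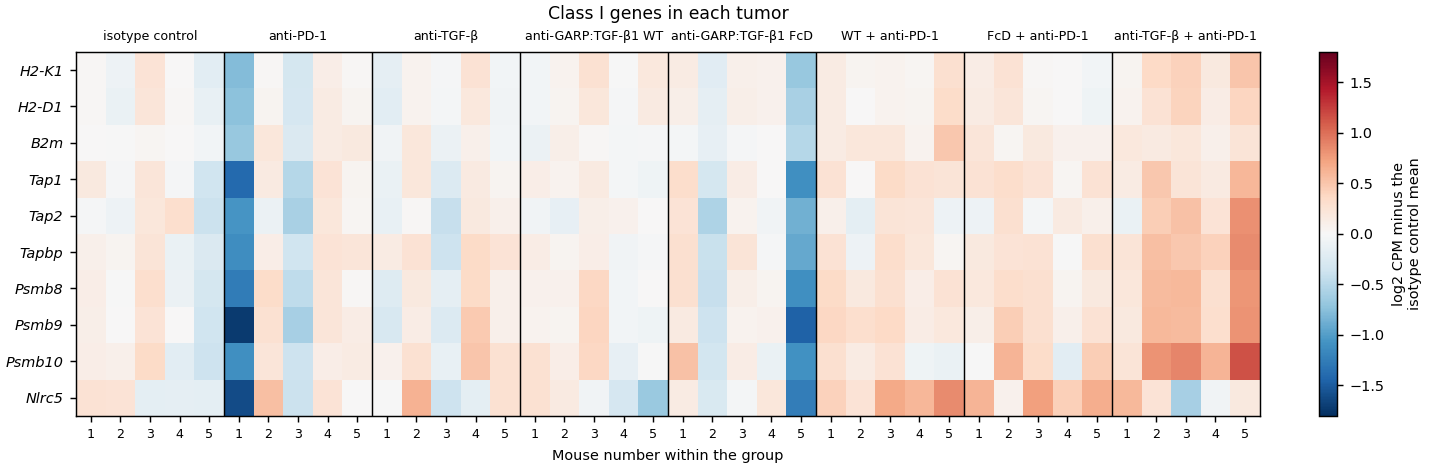
Heat map of the log2 CPM of each gene (rows) in each of the 40 mice (columns, by group) minus the mean log2 CPM of the isotype mice, on a color scale in log2 units. Mouse 1 of anti-PD-1 (median -1.11) and mouse 5 of anti-GARP:TGF-β1 FcD (median -1.01) are low in all 10 rows, and mouse 5 of the anti-TGF-β combination (median 0.70) is high in nearly all.

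With anti-TGF-β plus anti-PD-1, the immunoproteasome gene Psmb10 and the loading gene Tapbp were 0.74 and 0.51 higher on the log2 scale than with the isotype control, and 6 of the 10 members (H2-K1, Tap2, Tapbp, Psmb8, Psmb9 and Psmb10) were higher at an unadjusted p under 0.05, against 8.49% of all genes. None was lower at that level. In edgeR, 0 members passed an adjusted p of 0.05, as did 0 of all genes (0%), and DESeq2's test also gave 0 members. The comparison is therefore a set of small differences of 1 sign that does not pass the correction over all genes. The median over the 10 members was 0.36, and over all genes 0.02.

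Psmb10 encodes the subunit that takes the place of Psmb7 in the proteasome. It had 208, 310.5, 326, 272 and 392 CPM in mice 1 to 5 of the anti-TGF-β combination, and 193, 189, 225, 156 and 137 CPM in the isotype mice. Only mouse 1 of the combination fell within the isotype range, and 4 of 5 lay above every isotype mouse (0.74 ± 0.22, adjusted p = 0.127). Tapbp had 587, 727, 693, 664 and 893 CPM with the combination against 531, 515, 583, 459.7 and 415 CPM with the isotype control. All 5 treated mice lay above the 5 isotype mice for Tapbp (0.51 ± 0.19, adjusted p = 0.157), and the same was so for B2m, although its difference was only 0.18 ± 0.11 (adjusted p = 0.371). In this comparison 1.73% of all genes had 5 treated mice above every isotype mouse.

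B2m was the steadiest of these genes in the isotype group. The 5 isotype tumors had 2206, 2188, 2247, 2209 and 2129 CPM (2196 ± 42.9, a coefficient of variation of 1.96%), and those of the anti-TGF-β combination 2496, 2454, 2538, 2331 and 2578 CPM (2479 ± 94.9). The groups did not overlap, yet the spread of B2m over the other groups in the model (508 CPM with anti-PD-1) was far wider.

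Psmb8 and Psmb9, the other immunoproteasome subunits, are neighbours of the transporter genes in the MHC region. Psmb8 had 405, 519.7, 526, 425 and 606 CPM with the anti-TGF-β combination and 382, 346, 433, 325 and 281 CPM with the isotype control (0.49 ± 0.20, adjusted p = 0.187). Psmb9 had 262, 348, 345, 285 and 407 CPM against 248, 232, 274, 234 and 181 CPM (0.50 ± 0.24, adjusted p = 0.243). For both genes mouse 3 of the isotype control lay above mouse 1 of the combination, and for Psmb8 above mouse 4 as well.

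The transporter subunits and heavy chains had smaller differences. Tap2 had 232, 342, 362, 297 and 443 CPM with the anti-TGF-β combination and 248, 235, 289, 311 and 191 CPM with the isotype control (0.40 ± 0.19, adjusted p = 0.234), and Tap1 had 363, 462, 384, 369 and 498 CPM against 373, 325, 383, 323 and 255 CPM (0.32 ± 0.20, adjusted p = 0.348). For both subunits mice 2, 3 and 5 of the combination stood above every isotype mouse. H2-K1 had 1981, 2448, 2562, 2162 and 2703 CPM against 1940, 1807, 2267, 1937 and 1689 CPM, and differed by 0.30 ± 0.14 (adjusted p = 0.219). H2-D1 had 3187, 3624, 4010, 3322 and 3973 CPM against 3071, 2809, 3529, 3071 and 2781 CPM, and differed by 0.25 ± 0.13 (adjusted p = 0.266). The same 3 mice lay above the isotype range for both heavy chains, with mice 1 and 4 within it.

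Nlrc5 did not share this pattern. The mice of the anti-TGF-β combination had 199.7, 158, 87.6, 128 and 150.4 CPM of Nlrc5 and the isotype mice 160.2, 158, 118, 119 and 118 CPM. The isotype range lay wholly within that of the combination, and the difference was 0.10 ± 0.27 (adjusted p = 0.846).

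The anti-TGF-β combination was next set against anti-PD-1 alone, the group that held the lowest tumor for each gene. Without that tumor the differences were smaller for all 10 members, for example 0.72 instead of 0.89 for Psmb10, 0.45 instead of 0.62 for Tapbp and 0.10 instead of 0.22 for B2m. Here 8 of 10 members (all except B2m and Nlrc5) were higher at an unadjusted p under 0.05, against 7.0% of all genes, with a median of 0.57 over the members and 0.00 over all genes. Psmb10 had 82.1, 206, 136, 193 and 196 CPM with anti-PD-1, all below the 208 to 392 CPM of the combination (0.89 ± 0.22, adjusted p = 0.129). It was the only member whose groups did not overlap, as was so for 0.732% of all genes. Tap2 (0.65 ± 0.19, adjusted p = 0.154) and H2-K1 (0.46, adjusted p = 0.161) had the next smallest p-values, while by fold change Psmb9 (0.68, adjusted p = 0.191) was second. By edgeR 0 members passed the adjusted threshold, where 0.00678% of all genes did, while DESeq2's test called 1, Psmb10 (adjusted p = 0.0326), and 0.881% of the genes to which it gave an adjusted p.

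The number of members past the adjusted threshold changed with single mice. Without mouse 1 of the anti-TGF-β combination, which had the lowest level of its group for 8 members and the highest for Nlrc5, 7 of 10 members passed the adjusted threshold against anti-PD-1 (H2-K1, H2-D1, Tap2, Tapbp, Psmb8, Psmb9 and Psmb10), where 11.6% of all genes then did. Against the isotype control 2 of 10 did, Tapbp (adjusted p = 0.0453) and Psmb10 (adjusted p = 0.0182), where 13.4% of all genes did. Without mouse 3 of the isotype control Psmb10 passed against that control (adjusted p = 0.0442), where 4.88% of all genes did. Without mouse 5 of the combination, 2 rather than 6 members were higher at an unadjusted p under 0.05 against the isotype control, where 5.34% of all genes were. Ifng, the gene of interferon-γ, was higher in all 5 mice of the combination than in every isotype mouse (3.26, 3.77, 2.95, 2.06 and 4.51 CPM against 1.61, 1.57, 1.46, 0.786 and 0.554 CPM), a difference of 1.46 ± 0.47 (adjusted p = 0.141), and it passed without mouse 1 of the combination (1.48, adjusted p = 0.0457). Leukocyte markers moved in the same direction, from 468 to 593 summed CPM in the isotype mice to 615 to 814 CPM, and macrophage markers from 2053 to 3393 up to 3185 to 4234 CPM, whereas T cell markers overlapped (18 to 60.4 against 21.3 to 62.7 CPM). Neutrophil markers (32.2 to 117 against 21.1 to 58.8 CPM) and endothelial markers (83.6 to 133 against 74.2 to 98.0 CPM) lay above the isotype range in 3 of 5 mice each, and epithelial markers in mice 3 (91.6 CPM) and 5 (68.0 CPM, against 6.87 to 29.8). Their part in the higher member levels was not tested.

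**Figure D3:**
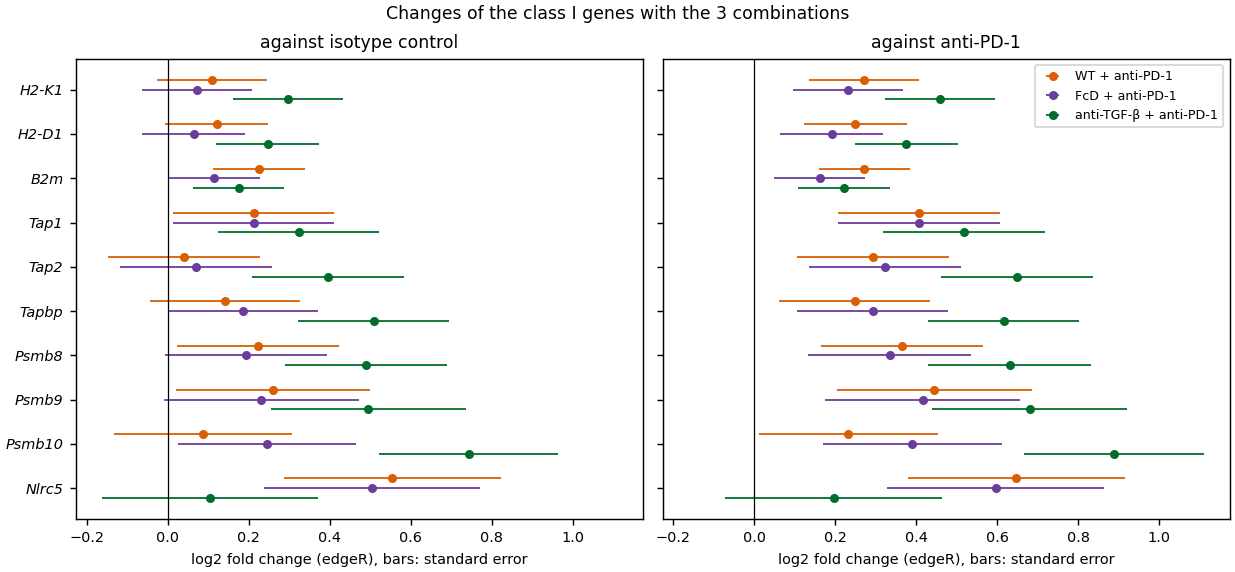
Log2 fold changes ± SE of the 10 genes (rows) for the 3 combinations against the isotype control (left) and against anti-PD-1 alone (right), with a line at 0. Psmb10 is farthest from 0 in the anti-TGF-β combination (0.74 and 0.89), and Nlrc5 in the WT and FcD combinations (0.56 and 0.50 on the left).

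Given alone, none of the 4 mAbs was followed by a member difference past a threshold. In each of these comparisons with the isotype control, edgeR gave 0 members at an adjusted p under 0.05 (0% of all genes), 0 higher at an unadjusted p under 0.05 and 0 lower, and DESeq2's test also gave 0 members past the adjusted threshold. The shares of all genes higher at the unadjusted level were small too, 0.603% with anti-PD-1, 1.77% with anti-TGF-β, 0.583% with anti-GARP:TGF-β1 WT and 0.264% with anti-GARP:TGF-β1 FcD. Member differences ran from -0.25 to -0.05 with anti-PD-1 and from -0.21 to -0.07 with anti-GARP:TGF-β1 FcD, where each was negative, and medians were -0.14 and -0.13. Both rested on 1 mouse: the median with anti-PD-1 was 0.03 without its mouse 1, and with anti-GARP:TGF-β1 FcD 0.02 without its mouse 5. With anti-TGF-β the differences ran from -0.06 to 0.19 (median 0.03) and with anti-GARP:TGF-β1 WT from -0.10 to 0.11 (median 0.05). All 4 comparisons share the isotype mice. Nlrc5 had 43.4, 194, 102, 158 and 134 CPM with anti-PD-1, 132, 206, 103, 118 and 161 CPM with anti-TGF-β, and 160.3, 149, 128, 108 and 83.4 CPM with anti-GARP:TGF-β1 WT. With anti-GARP:TGF-β1 FcD it had 148, 110.2, 129, 154 and 56.0 CPM, so each group reached both below and above the middle of the isotype range.

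In both GARP combinations the member with the widest difference from the isotype control was the transactivator Nlrc5. It had 177, 158, 213, 201 and 240.0 CPM with the WT combination and 203, 141, 222, 180.0 and 209 CPM with the FcD combination, against 118 to 160.2 CPM with the isotype control. In each combination 4 of 5 mice lay above every isotype mouse, by 0.56 ± 0.27 with WT (adjusted p = 0.234) and 0.50 ± 0.27 with FcD (adjusted p = 0.328). In the WT combination 1 of 10 members (Nlrc5) was higher at an unadjusted p under 0.05, where 13.2% of all genes were, and in the FcD combination 0 of 10, where 10.7% were. Both comparisons gave 0 members at an adjusted p under 0.05 in edgeR (0% of all genes) and 0 in DESeq2.

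B2m lay above the isotype range in the WT combination. It had 2433, 2530, 2518, 2289 and 3068 CPM, each above the highest isotype mouse (2247 CPM), a pattern shared by 1.35% of all genes, and the difference was 0.23 ± 0.11 (adjusted p = 0.247). In the FcD combination B2m had 2549, 2242, 2483, 2315 and 2305 CPM, where mouse 2 lay within the isotype range. The other 8 members differed from the isotype control by 0.04 to 0.26 with WT and by 0.06 to 0.25 with FcD. Medians over the members were 0.18 and 0.19, beside 0.01 and -0.00 over all genes.

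Interferon-γ RNA was also read in these tumors. Ifng was higher in all 5 mice of the WT combination (2.99, 2.21, 2.85, 1.75 and 5.66 CPM) and of the FcD combination (3.31, 2.56, 3.85, 3.51 and 3.58 CPM) than in every isotype mouse, by 1.36 ± 0.47 (adjusted p = 0.159) and 1.48 ± 0.48 (adjusted p = 0.225). Ptprc, which encodes the pan-leukocyte surface protein CD45, differed by 1.17 ± 0.42 with WT (adjusted p = 0.159) and 0.84 ± 0.42 with FcD (adjusted p = 0.305), and by 0.18 ± 0.42 with the anti-TGF-β combination (adjusted p = 0.831). Cd8a differed by 0.77 (adjusted p = 0.485), 0.00 (adjusted p = 0.999) and -0.57 (adjusted p = 0.631) in the same order. The values with WT rested on its mouse 5, which had 782 CPM of Ptprc and 79.7 CPM of Cd8a where the other 4 had 152 to 248 and 8.17 to 22.8 CPM. Without it, Ptprc differed by 0.44 ± 0.37 (adjusted p = 0.813), Cd8a by -0.24 ± 0.62 (adjusted p = 0.927) and Ifng by 1.03 ± 0.48 (adjusted p = 0.8, all edgeR). Summed leukocyte markers were 526 to 2387 CPM with WT, where 3 of 5 mice lay within the isotype range of 468 to 593 CPM, and 547 to 966 CPM with FcD, where 1 did. With FcD, dendritic cell markers (28.2 to 44.7 against 20.4 to 27.5 CPM) lay above the isotype range in all 5 mice and macrophage markers (3367 to 5359 against 2053 to 3393 CPM) and neutrophil markers (34.7 to 156 against 21.1 to 58.8 CPM) in 4 each, endothelial markers reached 187 CPM against 98.0, and adipocyte markers lay above the isotype range in 3 mice (45.8 to 188 against 0.693 to 24.2 CPM). Mouse 5 of the WT combination also had 423 CPM of endothelial, 235 CPM of epithelial and 172 CPM of neutrophil markers. Its macrophage markers (10918 CPM) and dendritic cell markers (60.8 CPM) were the highest of all 40 mice. Their part in the member levels was not tested. Without mouse 5 of the WT combination and mouse 4 of the FcD combination, which stood apart by their markers, 0 members had an unadjusted p under 0.05 against the isotype control in the WT combination, where 2.83% of all genes were higher. By library part, the difference of Nlrc5 from the isotype control was 0.07 in libraries 41 to 60 and 0.88 in 61 to 80 with WT, and 0.22 and 0.71 with FcD, so that it was larger in the later libraries with both.

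Set against anti-PD-1 alone, the WT combination had 3 of 10 members higher at an unadjusted p under 0.05 (11.2% of all genes): B2m (0.27 ± 0.11, adjusted p = 0.245), Tap1 (0.41 ± 0.20, adjusted p = 0.288) and Nlrc5 (0.65 ± 0.27, adjusted p = 0.245). The FcD combination had 2 (6.46% of all genes), Tap1 (0.41, adjusted p = 0.458) and Nlrc5 (0.60, adjusted p = 0.458). Without mouse 1 of anti-PD-1 these differences were smaller, with WT 0.14 for B2m, 0.21 for Tap1 and 0.42 for Nlrc5, and with FcD 0.21 for Tap1 and 0.37 for Nlrc5. In both, 0 members passed an adjusted p of 0.05 in edgeR (0% of all genes) and in DESeq2. The 2 comparisons use the same 5 anti-PD-1 mice, and the count with WT was 0 without mouse 1 of that group (6.66% of all genes) and 8 without its mouse 4 (9.41%). With FcD it was 0 without mouse 1 (5.09%).

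Adding anti-PD-1 to each mAb was also read against that mAb alone. With WT, Nlrc5 was higher by 0.65 (adjusted p = 0.118), the 1 member of 10 at an unadjusted p under 0.05, where 16.6% of all genes were. With FcD, B2m (0.25 ± 0.11, adjusted p = 0.211) and Nlrc5 (0.68 ± 0.27, adjusted p = 0.167) were higher, 2 of 10, where 13.0% of all genes were. All 5 mice of the FcD combination had more B2m than every mouse given FcD alone (2151, 1973, 2169, 2199 and 1534 CPM), as had 2.65% of all genes. With anti-TGF-β, H2-K1 (0.28), Tap2 (0.45), Psmb8 (0.44) and Psmb10 (0.55 ± 0.22) were higher, each with an adjusted p of 0.50, 4 of 10, where 3.96% of all genes were. These counts changed with single mice: with FcD 0 without mouse 5 of FcD alone (9.91% of all genes) and 7 without its mouse 1 (12.1%), and with anti-TGF-β 0 without mouse 5 of the combination (1.92%) and 7 without its mouse 1 (10.3%). No member passed the adjusted threshold in these 3 comparisons in edgeR (0% of all genes in each) or DESeq2.

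The interaction term asks whether the effect of a mAb with anti-PD-1 differs from the sum of the effects of both alone. For anti-TGF-β it was positive at an unadjusted p under 0.05 for 5 of 10 members, against 0.752% of all genes: Tap2 (0.71 ± 0.27), Psmb10 (0.70 ± 0.31), Psmb8 (0.58), H2-K1 (0.44) and H2-D1 (0.38). The adjusted p of each was 0.959. Without mouse 1 of the anti-PD-1 group the count was 1 of 10, where 1.0% of all genes were positive. For both GARP mAbs it was 0 of 10 (4.30% of all genes with WT and 2.45% with FcD), the nearest being Nlrc5 with 0.74 ± 0.38 (adjusted p = 0.483) and 0.77 ± 0.38 (adjusted p = 0.787). Without mouse 1 of FcD alone the count with FcD was 6, where 3.42% of all genes were positive. None of the 3 interactions gave a member at an adjusted p under 0.05 in edgeR (0% of all genes in each) or in DESeq2.

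Between the combinations, 1 member passed the correction. Psmb10 was higher with the anti-TGF-β combination (208 to 392 CPM) than with the WT combination (217, 196, 213, 168 and 164 CPM), by 0.66 ± 0.22 (adjusted p = 0.0394), with 4 of 5 mice above every mouse of the WT combination. It was the 1 member called among 10 in this comparison, where 18.2% of all genes passed the adjusted threshold and 16.5% were higher at an unadjusted p under 0.05. DESeq2's test also called Psmb10 and no other member, and 21.3% of the genes with an adjusted p. Nlrc5 went the other way, by -0.45 ± 0.27 (adjusted p = 0.217), and Ptprc by -1.0 (adjusted p = 0.0864), or by -0.26 ± 0.37 (adjusted p = 0.667) without mouse 5 of the WT combination. The call on Psmb10 was lost with no filter on low counts (adjusted p = 0.0902), with only these 2 groups in the model (0.163) and in 7 of 10 fits that left out 1 mouse, where the adjusted p ran from 0.00912 to 0.126 and the fold change from 0.55 to 0.78.

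Against the FcD combination, Psmb10 was higher by 0.50 ± 0.22 (adjusted p = 0.121), the 1 member at an unadjusted p under 0.05 where 15.4% of all genes were. Psmb10 had 176, 272, 222, 156 and 241 CPM in the FcD combination, so that its mouse 2 lay above 2 mice of the anti-TGF-β combination. No member passed the adjusted threshold there in edgeR or DESeq2, while 6.46% of all genes did in edgeR. The backbone made no detectable difference: FcD and WT combinations differed by -0.11 to 0.16 over the 10 members, with 0 of 10 higher at an unadjusted p under 0.05 (0.813% of all genes), and 0 members at an adjusted p under 0.05 in edgeR (0% of all genes) and DESeq2. With errors of 0.11 for B2m up to 0.27 for Nlrc5, these data do not show that the backbones act alike.

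Over all 8 groups at once, the test of any difference gave Psmb10 (adjusted p = 0.137) and Tapbp (adjusted p = 0.187), 2 of 10 members at an unadjusted p under 0.05, where 24.7% of all genes were. In edgeR 0 members passed the adjusted threshold (0.0271% of all genes did), and DESeq2's test gave 1, Psmb10, beside 7.79% of the genes with an adjusted p. The share of members at the unadjusted level was thus no higher than that of all genes. By library part, the difference of Psmb10 between the anti-TGF-β combination and the isotype control was 0.41 in libraries 41 to 60 and 0.95 in 61 to 80, and 0.94 and 0.74 against anti-PD-1.

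The exchange of proteasome subunits was examined as ratios within each tumor, on the log2 scale and per length of transcript. Psmb8 exceeded Psmb5, the β5 subunit it replaces, in every group, with a mean log2 ratio of 2.47 ± 0.18 in the isotype mice. Psmb9 and Psmb6 were near balance (-0.03 ± 0.19), as were Psmb10 and Psmb7 (0.01 ± 0.23). In the anti-TGF-β combination the ratio of Psmb10 to Psmb7 was 0.49 ± 0.24, and all 5 mice lay above all 5 isotype mice, a difference of 0.48 ± 0.15 (exact permutation test, 2-sided, p = 0.00794, the smallest p that 5 mice against 5 can give). Against anti-PD-1 (-0.24 ± 0.62) all 5 again lay above, by 0.74 ± 0.30 (exact permutation p = 0.00794), or by 0.49 without mouse 1 of anti-PD-1. After adjustment over the 30 ratio comparisons both had p = 0.119 by the exact permutation test, and 0 of 30 passed the threshold. Within library parts the permutation p was 0.0167 and 0.01, adjusted 0.25 for both.

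Psmb8 to Psmb5 was 2.87 ± 0.27 with the WT combination, 0.41 ± 0.15 above the isotype control (exact permutation p = 0.0238, adjusted p = 0.143), with 4 of 5 mice above every isotype mouse. With the FcD combination it was 2.73 ± 0.24, a difference of 0.26 ± 0.13 (exact permutation p = 0.0952, adjusted p = 0.344), with 3 of 5 mice above. Psmb9 to Psmb6 was 0.25 ± 0.12 with WT and 0.25 ± 0.13 with FcD, each 0.28 ± 0.10 above the isotype control (exact permutation p = 0.0238, adjusted p = 0.143). With the anti-TGF-β combination these ratios differed from the isotype control by 0.10 ± 0.13 (exact permutation p = 0.476) and 0.15 ± 0.11 (exact permutation p = 0.206), and the levels of Psmb5 and Psmb6 themselves were higher there by 0.40 and 0.34. Whether the ratios differed between the combinations was not tested. With anti-PD-1 alone the ratios spread widely, for Psmb8 to Psmb5 from 0.93 in mouse 1 to 2.90 in mouse 4.

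**Figure D4:**
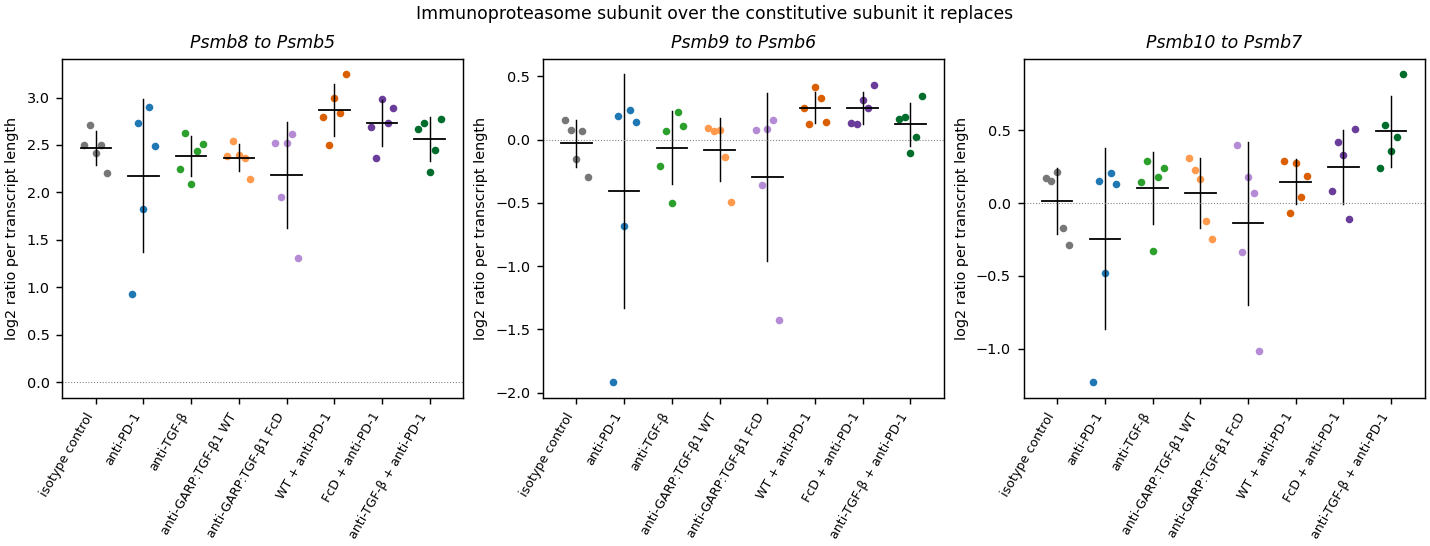
Log2 ratio per transcript length of Psmb8 to Psmb5, Psmb9 to Psmb6 and Psmb10 to Psmb7 (3 panels, vertical axes) by group, with a point for each mouse and bars for the mean ± SD. In the right panel all 5 mice of the anti-TGF-β combination (mean 0.49) lie above all 5 isotype mice (mean 0.01), while in the left panel the WT combination has the highest mean (2.87).

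Across the 40 tumors each member followed interferon-γ RNA. On the log2 CPM scale Pearson's r with Ifng ran from 0.672 (Tap2) to 0.876 (B2m), with 0.842 for Tap1, 0.829 for Psmb8, 0.809 for Nlrc5 and 0.718 for Psmb10. All 10 of these were past the adjusted threshold over 30 relations (permutation test, largest adjusted p = 4.29e-05, with 1e-05 the smallest p that 100000 permutations can give). Spearman's rho was lower, from 0.339 for Tap2 (permutation adjusted p = 0.0622) to 0.806 for B2m (permutation adjusted p = 5e-05). Without the tumors farthest from the median of Ifng, mouse 1 of anti-PD-1 and mouse 5 of anti-GARP:TGF-β1 FcD, r ran from 0.471 to 0.809. Within library parts it was 0.796 to 0.933 and 0.649 to 0.850, and between deviations from the group means 0.584 to 0.856. The values of a tumor share a library and its scaling.

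The members parted in how they followed leukocyte RNA. Nlrc5, which lymphocytes themselves express, had r = 0.839 and rho = 0.928 with Ptprc (permutation adjusted p = 2.5e-05 and 5e-05), r = 0.868 without mouse 5 of the WT combination and mouse 2 of anti-TGF-β, and r = 0.862 and 0.836 in the library parts. B2m followed with r = 0.677 and rho = 0.592. Psmb10 had r = 0.207 and rho = 0.171 (permutation adjusted p = 0.201 and 0.336), with r = 0.455 in the earlier and 0.019 in the later libraries. In all, 7 of 10 members were past the adjusted threshold with Ptprc, and H2-K1 (r = 0.273), Tap2 (0.230) and Psmb10 were not. By rho 3 of 10 were, B2m, Tap1 and Nlrc5. With Cd8a all 10 were by r and 3 by rho (the same B2m, Tap1 and Nlrc5), weakly for Psmb10 (r = 0.336, rho = 0.202, permutation adjusted p = 0.0403 and 0.255) and most for Nlrc5 (r = 0.696, rho = 0.662, permutation adjusted p = 2.5e-05), and r in the later libraries fell to between 0.149 and 0.635. Without mouse 3 of anti-PD-1 and mouse 5 of the WT combination r with Cd8a ran from 0.349 to 0.694.

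**Figure D5:**
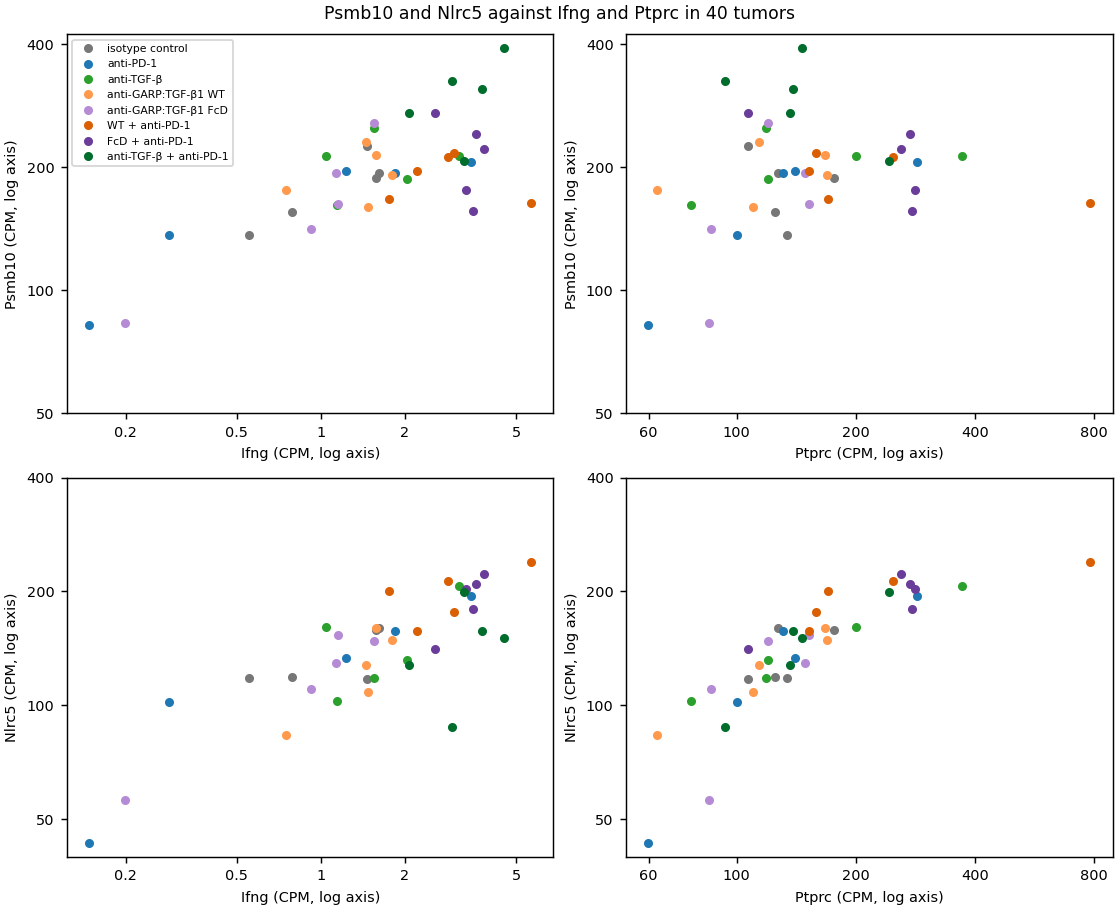
CPM of Psmb10 and of Nlrc5 (vertical, log axes) against CPM of Ifng and of Ptprc (horizontal, log axes) in 40 tumors, a point for each, marked by group. Psmb10 follows Ifng (r = 0.718) but hardly Ptprc (r = 0.207), and Nlrc5 follows both (r = 0.809 and 0.839).

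The members also followed each other, Nlrc5 least. Over the 36 pairs of the other 9 genes Pearson's r across 40 tumors lay between 0.675 and 0.990 (median 0.891), with 0.990 between H2-K1 and H2-D1, which may share reads, 0.984 between Psmb8 and Psmb9, and 0.966 between Tap1 and Psmb9, which overlap. The 9 pairs with Nlrc5 had r from 0.485 (with Tap2) to 0.795 (median 0.653). These are descriptions of values that share a library. Outside the list, the genes whose pattern was most like the mean standardized level of the members over 40 mice included Zbp1 (r = 0.952), H2-T23 (0.951), H2-K2 (0.932), Tapbpl (0.929), H2-M3 (0.928), Irf1 (0.923), Igtp (0.920), Batf2 (0.918) and Rtp4 (0.917). Irf1 encodes a transcription factor of the interferon response, and Tapbpl a relative of tapasin.

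Other genes of the pathway were read from 5 lists. Of the constitutive catalytic subunits, all 3 were higher with the anti-TGF-β combination than with the isotype control at an unadjusted p under 0.05, where 8.49% of all genes were: Psmb5 (0.40 ± 0.14, adjusted p = 0.154), Psmb6 (0.34 ± 0.11, adjusted p = 0.137) and Psmb7 (0.26 ± 0.09, adjusted p = 0.154). With the WT combination they differed by -0.17, -0.02 and -0.02 and with FcD by -0.05, -0.04 and 0.01, and no member of this list was past that level there. Against the WT combination all 3 passed the adjusted threshold with the anti-TGF-β combination (0.57, 0.36 and 0.29, adjusted p = 0.0225, 0.0284 and 0.0334), where 18.2% of all genes did. Against the FcD combination 2 did, Psmb5 (0.45, adjusted p = 0.0495) and Psmb6 (0.39, adjusted p = 0.0447), where 6.46% of all genes did.

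Of 4 proteasome activator genes, those of the interferon-inducible PA28 cap, Psme1 (0.45 ± 0.15, adjusted p = 0.143) and Psme2 (0.62 ± 0.17, adjusted p = 0.109), were higher with the anti-TGF-β combination than with the isotype control. They were so at an unadjusted p under 0.05, where 8.49% of all genes were, and neither passed the adjusted threshold. Psme3 (-0.03) and Psme4 (-0.07) did not pass the unadjusted level. Of 14 further loading and trimming genes 3 were higher and 1 lower at that level (median 0.10), where 8.49% of all genes were higher. The most abundant of them, all chaperones of the endoplasmic reticulum, were uneven: Pdia3, which encodes the oxidoreductase ERp57 of the loading complex, was higher by 0.24 ± 0.09 (adjusted p = 0.164), and calreticulin (Calr, 0.12), calnexin (Canx, -0.14) and Hspa5 (-0.05) did not pass. With the WT combination 1 was higher and 1 lower, and with FcD 0 higher and 1 lower, where 13.2% and 10.7% of all genes were higher.

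Of 14 class Ib genes, 5 were higher with the WT combination, 3 with FcD and 1 with the anti-TGF-β combination at an unadjusted p under 0.05, none lower (medians 0.30, 0.18 and 0.19). The shares of all genes higher there were 13.2%, 10.7% and 8.49%, and the same shares stand beside the counts of regulators that follow. H2-T23, which encodes Qa-1, a ligand of NKG2A receptors, was higher with all 3 combinations (0.49, adjusted p = 0.239 with WT, 0.51, adjusted p = 0.289 with FcD, and 0.64 ± 0.24, adjusted p = 0.16 with anti-TGF-β). H2-Q4, H2-T22 and H2-Q6 are also among the 4 most abundant of this list, and their fold changes are not given here. Of 14 regulators of these genes, 3, 3 and 2 were higher and 0, 1 and 1 lower, in the same order. Irf1 was higher in each (0.51, adjusted p = 0.238, 0.54, adjusted p = 0.278, and 0.60, adjusted p = 0.19), and Irf8, a factor of myeloid cells, by 0.80 with WT (adjusted p = 0.159) and 0.74 with FcD (adjusted p = 0.235). Fold changes of the other regulators are not given here. None of these list counts passed the correction over all genes against the isotype control in edgeR, and the 4 mAbs alone gave 0 genes of any of the 5 lists at an adjusted p under 0.05.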

How the data were processed

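Tumor RNA was sequenced as stranded mRNA libraries with paired-end reads. The authors aligned the reads to GRCm38 with STAR 2.5.3a and counted them per gene with HTSeq 0.9.1 (SAMtools 1.6 is also named in the submitters' processing notes), and deposited raw counts of 54087 genes in 40 mice without normalization. The strand setting of HTSeq is not given in the sources used here. All 40 columns were used. Total counts per mouse ran from 11931730 to 20680548, and 31326 genes had at least 1 count.

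Counts were normalized with TMM, filtered with filterByExpr (14760 genes) and tested with the robust quasi-likelihood test of edgeR 4.0.16 (R 4.3.3, limma 3.58.1) in 1 model of all 40 mice, 2-sided, with Benjamini-Hochberg adjustment over all genes tested. Levels are CPM, divided by the longest CCDS transcript length for comparison between genes. Ratios of subunits (added count 0.5) were compared with exact permutation tests, and relations with Ifng, Cd8a and Ptprc (log2 CPM, prior count 2) with 100000 permutations, 30 tests in each family (Python 3.11.15, numpy 2.4.6, scipy 1.17.1, pandas 2.3.3, matplotlib 3.10.9). Before mice were averaged, the 80 pairs of mice of 1 group were compared, and the lowest chi-square per degree of freedom was 5.44, so none was counted as a repeat. Each library is a separate mouse per the labels.

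Alternatives were the size factors of DESeq2 1.42.0 in edgeR, no filter on low counts, DESeq2's test (31326 genes), only the 2 groups compared, the library part as a covariate, an added count of 2 and permutation within library parts for ratios, a prior count of 0.5 and deviations from group means for relations, and each mouse left out in turn. Leaving out mouse 4 of the FcD combination and mouse 5 of the WT combination, and each mouse in turn for Ifng, Cd8a and Ptprc in the combinations, was added after seeing the data. The members and the gene lists were chosen with earlier results of these data known. The text names all members, every gene of a pathway list of up to 6 tested genes or the 4 most abundant of a longer one, Ifng, Cd8a and Ptprc, and the 10 genes most like the members' mean standardized level, of which 1 is not reported here. The tests were tested on simulated data with known changes.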

Additional observations from a re-analysis of the deposited data

Results flagged for a closer look

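Of 104 sets of 5 mice examined for a single distant tumor (13 quantities in 8 groups), 3 had one, where chance gives about 1 in 20 sets. Tap1 in the FcD combination was 336 CPM in mouse 4, below the 389 to 411 CPM of the other 4 mice. Mouse 4 is also the tumor with the highest epithelial marker sum. Tapbp in the anti-TGF-β group was 385 CPM in mouse 3, below the 551 to 632 CPM of the other 4, and the log2 ratio of Psmb10 to Psmb7 in that same mouse was -0.33, below 0.15 to 0.29 in the others. The causes were not tested.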

How the results depend on the processing

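No paired analysis was possible because the labels number no mouse within a group. For single members in the 9 comparisons of a combination with the isotype control, with anti-PD-1 or with another combination, 507 results under other settings kept direction and side of the threshold, 9 changed sign, 1 passed and 3 no longer passed it. With 1 mouse left out the counts over these 9 comparisons were 859, 22, 12 and 7. All 60 results of ratios under other settings kept theirs, and 58 of 60 relations did (Ptprc with H2-D1, adjusted p = 0.0837, and with Psmb9, 0.0522, were lost between deviations from group means). The causes of the changes below were not tested.

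Counts of members at an unadjusted p under 0.05 moved as follows. Against the isotype control, the WT combination (1) gave 2 with DESeq2's size factors, 0 with no filter, 2 with DESeq2's test, 3 with only 2 groups and 0 without mouse 4 of the FcD and mouse 5 of the WT combination, and the FcD combination (0) gave 2 with only 2 groups. Against anti-PD-1, WT (3) gave 5 with DESeq2, 0 with 2 groups and 0 without those 2 mice, and FcD (2) gave 1 with no filter and 0 with 2 groups. Against its own mAb, WT (1) gave 2 with the size factors, 2 with no filter, 2 with DESeq2 and 0 without those 2 mice, and anti-TGF-β (4) gave 7 with 2 groups. The interactions with WT and FcD (0) each gave 1 with the library part and 1 with DESeq2, and with anti-TGF-β (5) 3 with the library part. The anti-TGF-β combination (1) gave 3 against WT and 3 against FcD with 2 groups, and 0 against FcD without those 2 mice. Over all 8 groups (2) DESeq2 gave 7. The shares of all genes at that level, in either direction, were 15.5% beside this 7, 5.72% beside the 7 and 9.55% beside the 5 above, and 1.91% to 29.7% beside the other counts above 0. At an adjusted p under 0.05, DESeq2 gave 1 (main 0) over all groups and 1 (main 0) for the anti-TGF-β combination against anti-PD-1, and against WT the 1 became 0 with no filter, with 2 groups and without those 2 mice (Psmb10, adjusted p = 0.0742).

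With each mouse left out, unadjusted counts ran from 0 to 1 for FcD and 0 to 1 for WT against the isotype control, 2 to 7 for anti-TGF-β, 0 to 5 and 0 to 8 against anti-PD-1, 0 to 7 (FcD), 0 to 2 (WT) and 0 to 7 (anti-TGF-β) against the own mAb, 0 to 6, 0 to 2 and 1 to 8 for the interactions in that order, 1 to 4 for anti-TGF-β against WT and 0 to 3 against FcD, 0 to 6 over all groups and 0 to 1 between library parts. The extremes came from mouse 1 (0) and mouse 4 (8) of anti-PD-1 for WT against anti-PD-1, from mouse 5 (0) and mouse 1 (7) of FcD alone for FcD against its own mAb, from mouse 5 (0) and mouse 1 (7) of the anti-TGF-β combination against anti-TGF-β, and from mouse 1 (1) and mouse 4 (8) of anti-PD-1 for the anti-TGF-β interaction. The shares of all genes beside these highest counts were 14.9%, 19.8%, 24.9% and 2.37%. Adjusted counts ran from 0 to 7 against anti-PD-1 and 0 to 2 against the isotype control for the anti-TGF-β combination, 0 to 1 against WT, 0 to 1 against FcD and 0 to 1 over all groups.

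The following signs turned. Between the FcD and WT combinations, H2-K1 became 0.024, H2-D1 0.018, Tap1 0.047, Tap2 -0.024, Psmb8 0.014 and Nlrc5 0.050 without those 2 mice, Tap1 0.0069 with the library part and 0.0099 with 2 groups, and B2m between the anti-TGF-β and WT combinations 0.028. With 1 mouse left out, FcD minus WT ran from -0.090 to 0.0062 (H2-K1), -0.12 to 0.038 (Nlrc5), -0.064 to 0.0065 (Psmb8), -0.089 to 0.0066 (Psmb9), -0.051 to 0.044 (Tap1), -0.031 to 0.073 (Tap2) and -0.011 to 0.090 (Tapbp), and B2m of anti-TGF-β minus WT from -0.082 to 0.021. Nlrc5 with the anti-TGF-β combination ran from -0.022 to 0.41 against anti-PD-1 (lowest without its mouse 1) and from -0.028 to 0.24 against the isotype control, and Tap2 from -0.020 to 0.15 (FcD) and -0.048 to 0.12 (WT). With the mAbs given alone, ratios against the isotype control ran from -0.29 to 0.066 (FcD) and -0.022 to 0.13 (WT) for Psmb10 to Psmb7, from -0.47 to 0.019 (anti-PD-1) for Psmb8 to Psmb5, and from -0.38 to 0.017 (FcD), -0.12 to 0.054 (WT) and -0.10 to 0.076 (anti-TGF-β) for Psmb9 to Psmb6.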

Other observations

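Nlrc5 and Psmb10, which showed the widest differences in different combinations, were set against each other within each tumor as a log2 ratio per transcript length. This pair was chosen after the values had been seen, so no test is given. The median was -2.80 with the isotype control, -2.95 with anti-PD-1, -3.04 with anti-TGF-β, -3.09 with anti-GARP:TGF-β1 WT and -3.10 with anti-GARP:TGF-β1 FcD. In the WT and FcD combinations it was -2.53 and -2.53, and in the anti-TGF-β combination -3.62, where the 5 mice ran from -4.42 to -2.59. The other 7 groups ran from -3.61 to -1.98.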
